A study of Mus musculus with 24 samples.

Results

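The mesothelium genes described here are 10 genes, Wt1, Bnc1, Tbx18, Upk3b, Upk1b, Msln, Muc16, Krt19, Lrrn4 and Gpm6a, that are used as markers of the epithelial sheet covering the gut and other internal organs. They were chosen by symbol and by no cut on their values, though with earlier results of these data known. Each was found in all 4 tables that the authors deposited, which list 24602 genes (Ret null), 24747 genes (Sema3d null), 24664 genes (double null) and 26260 genes (interaction). The study sequenced poly-A RNA of 24 whole guts from mouse embryos of embryonic day 12.5, one library per gut, to ask whether Ret and Sema3d interact genetically while the enteric nervous system forms. There were 6 guts each of Ret null, Sema3d null, Ret-Sema3d double null and wildtype embryos, with 3 males and 3 females per genotype, and all came from stock of mixed C57BL/6, 129/Sv and C3H descent. Embryos called null were homozygous for the null allele, at both genes in the double null. The sources used here do not say how the null alleles were made.

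The mesothelium is a single layer of epithelial cells that arises from the lateral plate mesoderm. Over the developing gut it lies on the outer, serosal face, opposite the endoderm-derived epithelium of the lumen, and in mouse embryos some of its cells leave the layer, turn mesenchymal and contribute to the smooth muscle of gut vessels. The proepicardium and epicardium of the heart are mesothelial tissues that use many of the same genes. Ret is the signalling receptor for GDNF family ligands on enteric neural crest cells, and Sema3d encodes a secreted class 3 semaphorin, a guidance molecule that is also expressed in the proepicardium.

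The tables hold the authors' fitted models and no value for any single gut, so depth per library and the spread between guts are unknown here. A change below is the genotype coefficient, null over wildtype with sex in the model, taken as log2 although the headers do not name the base, and the value after ± is a standard error derived from the deposited model deviances. A gene was called changed where the adjusted p in the authors' deposited table was under 0.05. The Ret coefficient in the authors' deposited table was -8.34 ± 0.24 in Ret null guts and -10.36 ± 0.29 in double null guts, and that of Sema3d was -1.06 ± 0.11 in Sema3d null and -1.04 ± 0.07 in double null guts, each with an adjusted p listed as 0. The Ret null, Sema3d null and double null comparisons share the same 6 wildtype guts, so their values are not independent of each other.

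A fitted level below is the normalised read count that the authors' model of all 24 guts gives for a genotype, averaged over the sexes. The tables give no error for a level, so neighbours in an order of levels could not be tested. Divided by exon length, the wildtype level computed from the authors' deposited table was highest for Krt19, at 287 per kb, followed by Upk3b at 247 per kb, Bnc1 at 145 per kb and Wt1 at 112 per kb. Upk1b at 78.9 per kb and Lrrn4 at 70.2 per kb lay between these and a lower set, in which the wildtype levels per kb from the authors' deposited table were 21.1 for Gpm6a, 18.9 for Muc16, 4.87 for Msln and 2.01 for Tbx18. Of the 10 genes, 8 had a wildtype level of at least 50 normalised counts, and the 2 below it were Msln and Tbx18. Several of these genes are shared with other organs that lie beside the gut, so markers of those organs were read as well. Of the uroplakins that line the bladder with Upk1b, the wildtype level from the authors' deposited table was 40.8 for Upk1a, 0.542 for Upk2 and 0.749 for Upk3a. Of the kidney factors it was 1.70 for Pax2, 0.847 for Pax8 and 1.72 for Lhx1, but 80.3 for Sall1 and 32.5 for Cited1. Six2, which marks nephron progenitors but is also expressed in stomach mesenchyme, had a level of 529 in wildtype guts by the authors' deposited table. Lhx9, a gonad factor, had 123, but other gonad markers read were far lower, with 2.06 for Nr5a1, 8.48 for Emx2 and 3.42 for Amh. Tlx1 of the spleen had 116, and of the pancreas markers Gcg had 535, Cpa1 217, Pdx1 116 and Ptf1a 8.96. The guts also held the epithelium of the lumen, with a wildtype level of 1139 for Epcam in the authors' deposited table, and Krt19 is expressed there as well as in mesothelium.

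**Figure D1:**
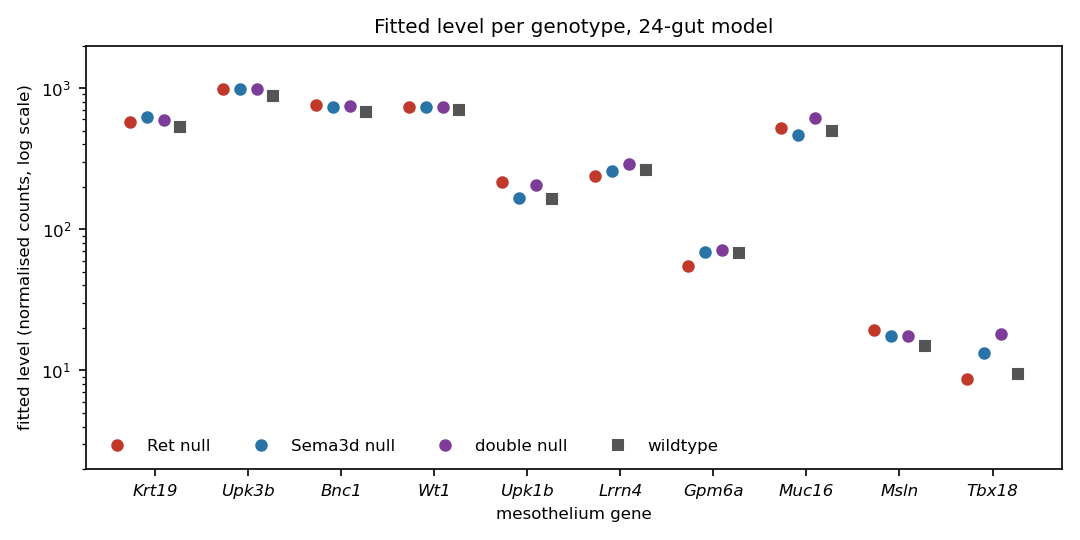
Fitted level of each of the 10 genes (normalised read counts, log scale) in Ret null, Sema3d null, double null and wildtype guts, from the authors' model of 24 guts, ordered by wildtype level per kb of exon. Upk3b lies near 980 in the 3 null genotypes and at 873 in wildtype, and Tbx18 runs between 8.67 and 18.2.

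The set holds 3 transcription factors. Wt1 (ENSMUSG00000016458.13, chr2:105126529-105173616, plus strand, GRCm38) encodes a zinc finger factor required for kidney, gonad and epicardium and is the classical nuclear marker of mesothelium. Its fitted levels from the authors' deposited table were 739 in Ret null, 737 in Sema3d null, 733 in double null and 693 in wildtype guts. The antisense gene Wt1os starts 18 bases from Wt1 on the other strand and does not overlap it, and its wildtype level from the authors' deposited table was 53.1. Bnc1 (ENSMUSG00000025105.9, chr7:81966672-81992292, minus strand) encodes the zinc finger protein basonuclin 1, known from stratified epithelia and mesothelium. From the authors' deposited table, Bnc1 had fitted levels of 754 in Ret null, 735 in Sema3d null, 743 in double null and 673 in wildtype guts. Tbx18 (ENSMUSG00000032419.8, chr9:87702800-87731260, minus strand) encodes a T-box factor of the proepicardium, epicardium, sclerotome and ureter mesenchyme. Its fitted levels from the authors' deposited table were 8.67 in Ret null, 13.2 in Sema3d null, 18.2 in double null and 9.50 in wildtype guts, the lowest of the 10 genes except in double null guts, where Msln was lower. The Wt1 and Bnc1 levels of the 3 null genotypes all lay above wildtype, while those of Tbx18 lay on both sides of it. Bnc1 and Tbx18 each overlap an antisense gene, 4833418N17Rik and D030062O11Rik, whose wildtype levels in the authors' deposited table were 1.42 and 0.680. Gpm6a overlaps small genes on its own strand, of which Gm45264 had the highest wildtype level in the authors' deposited table, 1.01. The library kit keeps strand, but the sources used here do not say whether the counting used it.

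The other 7 genes encode membrane and structural proteins. Upk3b (ENSMUSG00000042985.7, chr5:136038496-136046487, plus strand) and Upk1b (ENSMUSG00000049436.4, chr16:38773184-38800328, minus strand) encode uroplakins, integral membrane proteins, and Upk3b is a strong marker of mesothelium in adult mouse organs. Fitted levels of Upk3b from the authors' deposited table were 979.9 in Ret null, 981 in Sema3d null, 980.3 in double null and 873 in wildtype guts. Upk1b had fitted levels from the authors' deposited table of 216 in Ret null, 167 in Sema3d null, 206 in double null and 165 in wildtype guts. Upk3b thus lay at about the same height in all 3 null genotypes, and Upk1b stood higher in the 2 that lack Ret. Msln (ENSMUSG00000063011.6, chr17:25748613-25754378, minus strand) encodes mesothelin, a surface glycoprotein anchored by GPI, and Muc16 (ENSMUSG00000109564.1, chr9:18495455-18674530, minus strand) encodes the large mucin that mesothelin binds. From the authors' deposited table, fitted levels of Msln were 19.3 in Ret null, 17.6 in Sema3d null, 17.4 in double null and 14.9 in wildtype guts. Those of Muc16 from the authors' deposited table were 518 in Ret null, 465 in Sema3d null, 612 in double null and 497 in wildtype guts. Krt19 (ENSMUSG00000020911.14, chr11:100140810-100148665, minus strand) encodes a type I keratin of simple epithelia. Its fitted levels from the authors' deposited table were 571 in Ret null, 627 in Sema3d null, 592 in double null and 533 in wildtype guts. Lrrn4 (ENSMUSG00000043110.2, chr2:132868305-132880891, minus strand) encodes a leucine-rich repeat membrane protein used to mark and isolate mesothelial cells. Gpm6a (ENSMUSG00000031517.8, chr8:54954843-55060871, plus strand) encodes a tetraspan membrane glycoprotein that is abundant in neurons and is also found in mesothelium. Fitted levels of Lrrn4 from the authors' deposited table were 237 in Ret null, 260.3 in Sema3d null, 291 in double null and 261 in wildtype guts. Gpm6a had fitted levels from the authors' deposited table of 54.7 in Ret null, 68.5 in Sema3d null, 71.6 in double null and 67.9 in wildtype guts. Lrrn4 and Gpm6a were the 2 of these 7 genes whose Ret null level lay below wildtype.

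Promoters are shown for Upk3b and Bnc1, the 2 genes of the set with the smallest derived errors and the smallest unadjusted p in Ret null guts, because their start regions differ in base composition while their changes were of similar size. The sequences are RefSeq's on GRCm38.p6, 250 bases before to 50 after the start, 5′ to 3′ on the gene's strand. In Upk3b (chr5:136038246-136038545, plus strand) the capitals mark the letters of the TEAD motif GGAATG, here read on the other strand. In Bnc1 (chr7:81992250-81992549, minus strand) they mark the GC box letters GGGGCGG.
Upk3b: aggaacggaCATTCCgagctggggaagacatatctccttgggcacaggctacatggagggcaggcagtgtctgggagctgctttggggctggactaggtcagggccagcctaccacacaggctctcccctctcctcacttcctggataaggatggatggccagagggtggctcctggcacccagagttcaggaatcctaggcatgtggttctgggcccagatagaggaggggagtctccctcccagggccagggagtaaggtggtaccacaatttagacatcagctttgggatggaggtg
Bnc1: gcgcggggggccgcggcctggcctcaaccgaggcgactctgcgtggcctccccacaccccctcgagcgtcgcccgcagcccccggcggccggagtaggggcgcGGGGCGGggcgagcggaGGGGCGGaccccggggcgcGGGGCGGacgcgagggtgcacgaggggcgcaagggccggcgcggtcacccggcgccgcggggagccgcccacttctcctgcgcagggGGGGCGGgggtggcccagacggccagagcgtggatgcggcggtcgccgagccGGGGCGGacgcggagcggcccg
The Bnc1 stretch had 83.3% G and C and 50 CpG pairs, the Upk3b stretch 58.7% and 2, and the median over all 32851 promoters of the table was 52.7% and 7. Promoters of 6 of the 10 genes were in the table, as 7 windows. TEAD letters, searched on both strands like the rest, stood in 3 of the 7 windows, those of Upk3b, Lrrn4 and one of Gpm6a, against 14.7% of all promoters. That Gpm6a window (chr8:54779184-54779483) lies far upstream of the Gpm6a span given above. The window beside that span (chr8:54954478-54954777) had 0 TEAD matches. The GC box stood in 1 of the 7, that of Bnc1 with 5 matches, against 23.2% of all. The Wt1 letters GCGTGGGNG and the T-box letters GGTGTGA stood in 0 of the 7, against 1.9% and 3.98% of all. These are matches of letters in one window and say nothing of binding.

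In Ret null guts, 0 of the 10 mesothelium genes were called changed by the authors' likelihood-ratio test, while 2.66% of all genes in the authors' deposited table were called in either direction. The uroplakins and Bnc1 stood above wildtype by 0.16 to 0.40 on the log2 scale, and Gpm6a, Lrrn4 and Tbx18 stood below it. At an unadjusted p under 0.05, 3 of the 10 genes were higher (Bnc1, Upk3b and Upk1b) and 0 lower in the authors' deposited table, against 2.96% of all genes higher, or 4.81% of genes with a wildtype level of at least 50. In whole guts, fewer cells of a type and less RNA per cell cannot be told apart, in either direction.

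Bnc1 was 0.16 ± 0.06 higher on the log2 scale in Ret null than in wildtype guts in the authors' deposited table, with a 95% interval of 0.04 to 0.28, an unadjusted p of 0.00783 and an adjusted p of 0.197. Upk3b was at 0.17 ± 0.07, interval 0.03 to 0.30, adjusted p 0.306, and Upk1b at 0.40 ± 0.17, interval 0.06 to 0.73, adjusted p 0.366, both log2 changes in the authors' deposited table. These 3 intervals lay above 0, yet each missed the threshold once all genes were taken into account. Wt1, at 0.09 ± 0.07 in the authors' deposited table, had a log2 interval of -0.05 to 0.23 and an adjusted p of 0.922, so a loss of more than 0.05 or a gain of more than 0.23 lay outside it. Among the surface and keratin genes the log2 change in the authors' deposited table was 0.37 ± 0.31 for Msln, 0.09 ± 0.14 for Krt19 and 0.08 ± 0.20 for Muc16, with adjusted p of 0.937, 1 and 1. Gpm6a was lowest, at -0.31 ± 0.17 in the authors' deposited table, with an interval of -0.64 to 0.01 and an adjusted p of 0.637. Gpm6a is also a neuronal gene, and all 10 neuron markers read beside it fell in these guts, and its mesothelial and neuronal transcripts cannot be told apart. In double null guts, where the same 10 markers fell, Gpm6a had a fitted level of 71.6, against 67.9 in wildtype guts, by the authors' deposited table. Lrrn4 at -0.14 ± 0.16 and Tbx18 at -0.14 ± 0.42 in the authors' deposited table had log2 intervals of -0.46 to 0.18 and -0.96 to 0.69. The median log2 change of the 10 genes in the authors' deposited table was 0.09, with 7 of 10 above 0, beside a median of 0.00712 and 53.6% above 0 over genes with a level of at least 50. The 12 mesenchyme and smooth muscle markers had, by the authors' deposited table, a median log2 change of 0.11, with 7 of 12 above 0.

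In Sema3d null guts, 0 of the 10 genes were called by the likelihood-ratio test and 0 had an unadjusted p under 0.05 in the authors' deposited table. Few genes of any kind were called there, 0.0404% of all genes in the authors' deposited table, and 4.53% had an unadjusted p under 0.05. Of the 10 coefficients in the authors' deposited table, 8 were above 0, beside 50.2% of genes with a level of at least 50, and the median was 0.11, beside 0.000689 over genes with a level of at least 50. Over the 8 mesothelium genes at that level the median in the authors' deposited table was 0.0597. The adjusted p in the authors' deposited table was 0.9996 for each of the 10 genes.

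Among the transcription factors, the log2 change in Sema3d null guts in the authors' deposited table was 0.09 ± 0.10 for Wt1, 0.13 ± 0.10 for Bnc1 and 0.48 ± 0.43 for Tbx18. Their log2 intervals from the authors' deposited table were -0.11 to 0.29, -0.06 to 0.32 and -0.37 to 1.32. The Tbx18 interval was the widest of the 10 genes there, and the Wt1 and Bnc1 intervals were the narrowest. Upk3b was at 0.17 ± 0.13, interval -0.08 to 0.43, and Upk1b at 0.03 ± 0.15, interval -0.28 to 0.33, both log2 changes in the authors' deposited table. Krt19 had the smallest unadjusted p of the 10 genes, 0.119, with a log2 change of 0.24 ± 0.16 in the authors' deposited table. Msln at 0.24 ± 0.32, Muc16 at -0.09 ± 0.20, Gpm6a at 0.02 ± 0.17 and Lrrn4 at 0.00 ± 0.11, all log2 changes in the authors' deposited table, had intervals that held 0. The smallest change called in Sema3d null guts among genes with a level of at least 50 was 0.489 log2 units in the authors' deposited table, for Samd5, against 0.154 for Igf2 in Ret null and 0.163 for Coro1c in double null guts. The 12 guts of the Sema3d null comparison had a median derived error of 0.155 over the 10 genes in the authors' deposited table, and 0.111 over all genes with a level of at least 50. Over the 10 genes it was 0.164 in the Ret null and 0.157 in the double null comparison, so no smaller there. Over all genes at that level it was smaller, 0.0773 and 0.0782.

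**Figure D2:**
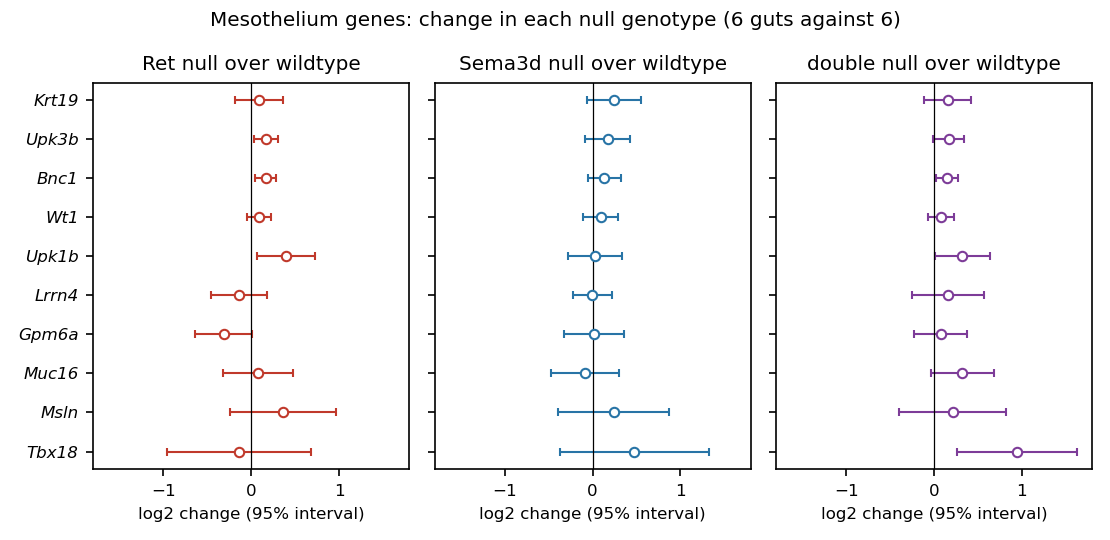
Log2 change of each of the 10 genes against wildtype in guts of the Ret null, Sema3d null and double null genotypes, with bars for the 95% interval from the derived error. Every interval that leaves out 0 lies above 0, for Bnc1, Upk3b and Upk1b in Ret null and for Bnc1, Upk1b and Tbx18 in double null guts, and no adjusted p was under 0.05.

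In Ret-Sema3d double null guts, 0 of the 10 genes were called, while 2.1% of all genes in the authors' deposited table were called in either direction. All 10 coefficients in the authors' deposited table stood above 0, with a median log2 change of 0.16 and a mean of 0.259, beside a median of 0.00464 and 52.5% above 0 over genes with a level of at least 50. Coefficients stood above 0 as well for 11 of 12 epithelial, 11 of 12 mesenchymal and 8 of 8 endothelial markers in the authors' deposited table, whose median log2 changes were 0.06, 0.08 and 0.27. At an unadjusted p under 0.05, 3 of the 10 genes were higher (Tbx18, Bnc1 and Upk1b) and 0 lower in the authors' deposited table, against 2.72% of all genes higher and 4.29% of those with a level of at least 50.

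Tbx18 had the largest value of the 10, a log2 change of 0.94 ± 0.35 in the authors' deposited table, or 1.92-fold, with a log2 interval of 0.26 to 1.63. Its unadjusted p was 0.00684 and its adjusted p 0.227 in the authors' deposited table, at a fitted level of 18.2 in double null and 9.50 in wildtype guts. Tbx18 is also a gene of non-mesothelial mesenchyme, and it had both the lowest wildtype level and the largest derived error of the 10 genes. Bnc1 was at 0.14 ± 0.06, interval 0.02 to 0.27, adjusted p 0.494, and Wt1 at 0.08 ± 0.07, interval -0.06 to 0.22, adjusted p 1, as log2 changes in the authors' deposited table. Upk1b was at 0.32 ± 0.16, interval 0.01 to 0.64, adjusted p 0.686, and Upk3b at 0.17 ± 0.09, interval -0.01 to 0.34, adjusted p 0.808, again in the authors' deposited table. The mucin and its partner had log2 changes in the authors' deposited table of 0.32 ± 0.18 for Muc16, interval -0.04 to 0.68, and 0.21 ± 0.31 for Msln, interval -0.40 to 0.82. Krt19 at 0.16 ± 0.14, Lrrn4 at 0.16 ± 0.21 and Gpm6a at 0.08 ± 0.15 in the authors' deposited table had log2 intervals that held 0 and an adjusted p of 1. The upper ends of those 3 intervals were 0.43, 0.57 and 0.38 log2 units.

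**Figure D3:**
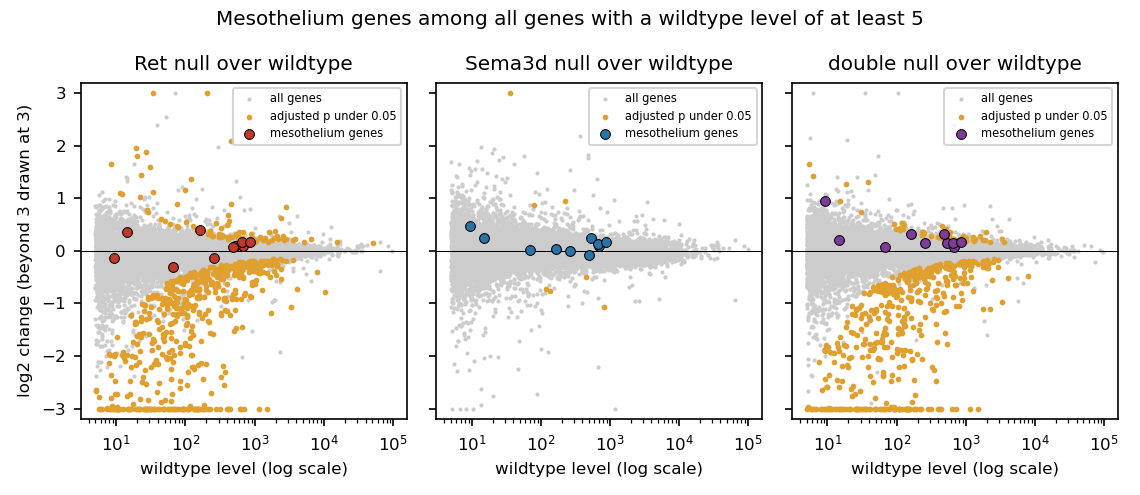
Log2 change against fitted wildtype level (normalised read counts, log scale) for all genes with a level of at least 5 in grey, called genes in orange and the 10 mesothelium genes marked, in the Ret null, Sema3d null and double null comparisons. Changes beyond 3 log2 units are drawn at 3; the marked genes lie within 1 log2 unit of 0 and none is called.

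The interaction term asks whether the double null gut departs from the sum of the single null changes. None of the 10 genes was called (0 by the likelihood-ratio test, and 0 at an unadjusted p under 0.05), while 0.164% of all genes in the authors' deposited table were called and 6.79% had an unadjusted p under 0.05. The smallest unadjusted p of the 10 in the authors' deposited table was 0.0925, for Gpm6a, whose interaction was 0.37 ± 0.22 on the log2 scale with an adjusted p of 0.811. Of the 10 genes, 6 had a coefficient below 0 and 4 above 0 in the authors' deposited table, with a median of -0.10 log2 units, and the 4 above were Tbx18 at 0.59 ± 0.53, Gpm6a, Muc16 at 0.34 ± 0.28 and Lrrn4 at 0.30 ± 0.26. For Wt1 the interaction in the authors' deposited table was -0.10 ± 0.12, for Bnc1 -0.15 ± 0.12 and for Upk3b -0.17 ± 0.14 log2 units. Msln at -0.38 ± 0.40, Krt19 at -0.18 ± 0.24 and Upk1b at -0.09 ± 0.23 log2 units in the authors' deposited table were the rest. The derived errors of the 10 interactions in the authors' deposited table had a median of 0.235 log2 units, and the smallest interaction called among genes with a level of at least 50 was 0.428, for Nhsl2.

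**Figure D4:**
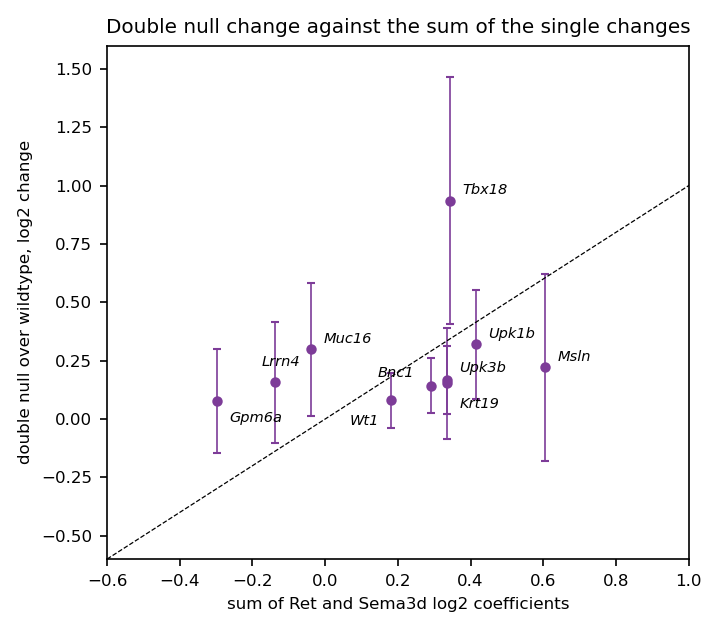
Log2 change of each of the 10 genes in double null guts against the sum of its Ret null and Sema3d null changes, all from the authors' model of 24 guts; bars show the derived error of the interaction and the dashed line is equality. Tbx18, Gpm6a, Muc16 and Lrrn4 lie above the line and the other 6 genes below it, and no interaction was called.

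Set against the single nulls, with no test because the tables do not give the covariance of the coefficients, the double null level of Tbx18 was 1.07 log2 units above Ret null and 0.46 above Sema3d null guts in the authors' deposited table. Gpm6a, Lrrn4 and Muc16 stood 0.39, 0.29 and 0.24 log2 units higher in double null than in Ret null guts by the authors' deposited table, with the other 6 genes differing by -0.15 to 0.05. Against Sema3d null guts, Muc16 stood 0.40, Upk1b 0.30 and Lrrn4 0.16 log2 units higher in double null guts per the authors' deposited table, and the other 6 genes differed by -0.08 to 0.06. Upk3b and Wt1 kept almost the same fitted level in the 3 null genotypes.

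Each table also holds a sex coefficient, male over female, which has no p of its own there. For Tbx18 it was -0.46, -0.19 and -0.34 log2 units in the Ret null, Sema3d null and double null comparisons of the authors' deposited table, the lowest of the 10 genes each time. Krt19 had 0.10, 0.34 and 0.34 and Msln 0.19, 0.22 and 0.61 log2 units, male over female, in the same 3 comparisons of the authors' deposited table. The 3 comparisons share the wildtype males and females, so these values are not independent. The median sex coefficient of the 10 genes in the authors' deposited table was 0.08, 0.06 and 0.11 log2 units, with 7, 7 and 9 of 10 above 0, beside 51.4%, 54.6% and 48.9% of genes with a level of at least 50. Wt1 had 0.03, -0.00283 and 0.01 log2 units in the authors' deposited table, close to 0 in each. Since each genotype had 3 males and 3 females, sex and genotype were balanced.

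A list of 20 other genes of mesothelium and proepicardium was read beside the 10. In Ret null guts 3 of the 20 rose and 1 fell, against 0.386% of all genes called higher and 2.27% called lower in the authors' deposited table. Rspo1, which encodes a secreted enhancer of Wnt signalling, rose by 0.32 ± 0.08 log2 units with an adjusted p of 0.00426 in the authors' deposited table. Aldh1a2, which encodes a retinoic acid synthesis enzyme, rose by 0.28 ± 0.08 with an adjusted p of 0.0282, and Cdh3, which encodes P-cadherin, by 0.22 ± 0.05 with an adjusted p of 0.00123, both log2 changes in the authors' deposited table. The wildtype level of Aldh1a2 in the authors' deposited table was 1161 per kb, against 112 per kb for Wt1. The part of other tissues in these 3 rises was not tested. Sema3d itself fell by 0.27 log2 units (derived error 0.06, adjusted p 8.82e-04) in Ret null guts per the authors' deposited table. The median log2 change of the 20 in the authors' deposited table was 0.05, beside 0.00712 over genes with a level of at least 50.

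In Sema3d null guts Sema3d, the targeted gene, was the 1 gene of the 20 called in the authors' deposited table, lower, and Alcam, an adhesion molecule, came next with a log2 change of -0.17 ± 0.09 and an adjusted p of 0.9996. In double null guts 2 of the 20 rose and Sema3d fell, against 0.231% of all genes called higher and 1.87% called lower in the authors' deposited table. Those that rose were Podxl, which encodes the sialomucin podocalyxin, by 0.17 ± 0.05 log2 units with an adjusted p of 0.0160, and Cdh3 by 0.17 ± 0.05 with an adjusted p of 0.0252 in the authors' deposited table. Podxl is made by endothelium too, and 5 of 8 endothelial markers rose in double null guts. The part of either tissue in the Podxl change was not tested. Aldh1a2, at 0.06 ± 0.06 log2 units in double null guts per the authors' deposited table, was not called there. Its interaction in the authors' deposited table was -0.34 ± 0.11 log2 units, with an unadjusted p of 0.00151 and an adjusted p of 0.218, and 0 of the 20 interactions were called by the likelihood-ratio test, with 3 at an unadjusted p under 0.05, beside 6.79% of all genes and 10.5% of those with a level of at least 50.

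**Figure D5:**
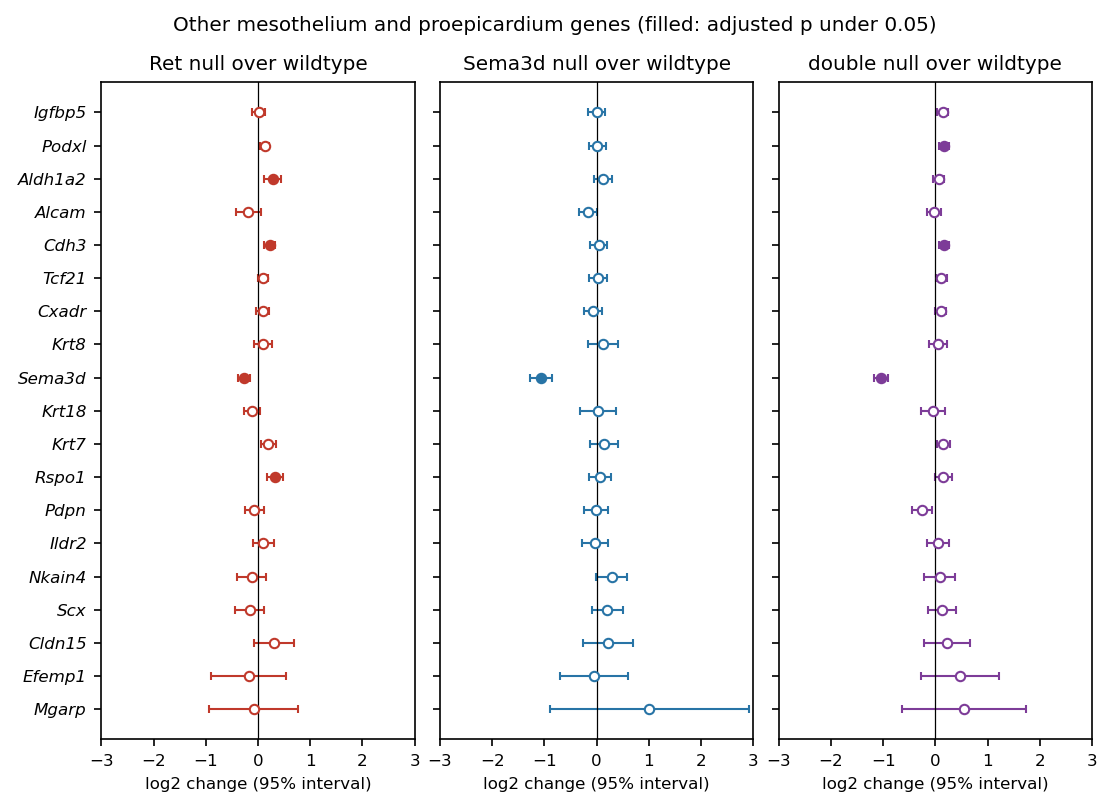
Log2 change of the other mesothelium and proepicardium genes against wildtype in guts of the Ret null, Sema3d null and double null genotypes, with bars for the 95% interval; filled points have an adjusted p under 0.05. Prg4, at a wildtype level under 1, is left out. Filled points are Rspo1, Aldh1a2, Cdh3 and Sema3d in Ret null, Sema3d in Sema3d null, and Podxl, Cdh3 and Sema3d in double null guts.

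Markers of other cell types in the gut wall were read for the same guts. The summed fitted level of the 10 mesothelium genes from the authors' deposited table was 4097 in Ret null, 4073 in Sema3d null, 4264 in double null and 3787 in wildtype guts, or 108%, 108% and 113% of wildtype in the 3 null genotypes. The 20 other mesothelium and proepicardium genes summed to 104% of wildtype in Ret null, 99.2% in Sema3d null and 107% in double null guts by the authors' deposited table. That sum includes the targeted gene Sema3d, at a fitted level of 815 in wildtype and 389 in Sema3d null guts. Igfbp5 alone made up 17096 of its 34940 normalised counts in wildtype guts. The 12 epithelial markers, among them Epcam, summed to 6455 in Ret null, 6099 in Sema3d null, 6441 in double null and 6168 in wildtype guts by the authors' deposited table, with 0 of 12 called in any comparison and 0 at an unadjusted p under 0.05. The 10 neuron markers, from Tubb3 to the nicotinic receptor gene Chrna3, summed to 574 in Ret null, 3560.1 in Sema3d null, 564 in double null and 3701 in wildtype guts by the authors' deposited table. All 10 fell in both genotypes that lack Ret, by log2 changes of -6.18 to -0.94 (Ret null) and -6.48 to -1.03 (double null) in the authors' deposited table, and in Sema3d null guts 0 of 10 were called, with 0 at an unadjusted p under 0.05.

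The 12 markers of gut mesenchyme and smooth muscle summed to 104% of wildtype in Ret null, 101% in Sema3d null and 106% in double null guts by the authors' deposited table, with 0 called in each. At an unadjusted p under 0.05, 3 of them were higher in Ret null, 0 in Sema3d null and 1 in double null guts. Among all genes with a level of at least 50 the shares higher were 4.81%, 2.84% and 4.29%. The 8 endothelial markers summed to 100.4% of wildtype in Ret null, 109.7% in Sema3d null and 119% in double null guts by the authors' deposited table. Of these 8, 5 rose in double null guts (Pecam1, Cdh5, Tie1, Kdr and Esam, by 0.19 to 0.30 log2 units in the authors' deposited table), and 0 were called in the single null guts, where 0 (Ret null) and 3 (Sema3d null) had an unadjusted p under 0.05. Over all genes, 0.231% were called higher in double null guts, and 4.53% had an unadjusted p under 0.05 in Sema3d null guts. The kidney, gonad and bladder markers summed to 108% of wildtype in Ret null, 101% in Sema3d null and 103% in double null guts by the authors' deposited table, with 0 called in any comparison and 0 at an unadjusted p under 0.05. That sum held 13 of the 14 genes, and Six2 alone made up 529 of its 825 normalised counts in wildtype guts. Only 3 of the 14 had a wildtype level of at least 50, so changes in the others could have been missed. The spleen and pancreas markers summed to 101% of wildtype in Ret null, 104% in Sema3d null and 96.2% in double null guts by the authors' deposited table, again with 0 called. At an unadjusted p under 0.05 were 1, 2 and 0 of the 8, beside 8.43%, 4.53% and 6.71% of all genes. The share that any of these tissues had in the mesothelium genes' values was not tested.

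Over the 3 changes against wildtype, the genes closest to Wt1 among 12153 with a level of at least 50 were Reep4, Txlng, Arf5, Triobp and Zkscan5, at Euclidean distances of 0.00624 to 0.0123 log2 units from the authors' deposited table. As 1466 of those genes lay within 0.1 of Wt1, small changes of this kind were common. Closest to Msln were Fendrr, Angptl6, Ybx2, Pfkfb1 and Pyy, at 0.0213 to 0.0563 log2 units from the authors' deposited table, with 36 of 12154 genes within 0.1. None of these 10 neighbours is one of the mesothelium genes, and likeness over 3 comparisons that share their wildtype guts is a description of these fits.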

How the data were processed

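One stranded poly-A library was made per gut, per the labels' protocols. The tools of the authors were DESeq 1.24.0, RSEM 1.2.31, STAR, Trimmomatic 0.36 and FastQC 0.11.5, and the build was GRCm38 (mm10), per the submitters' processing notes, which state no roles or order. Per the file headers, the deposited tables hold model coefficients, p-values, adjusted p-values and, for a reduced and a full model, deviances that served here as a score of fit. Each comparison with wildtype rests on 12 guts with sex as a covariate, and the interaction on 24. Some interaction coefficients of the deposited table are unbounded fits that lie beyond the range of a log2 value, and fits over 15 in size or not converged were left out of levels and medians. The tables hold neither a value per gut nor a depth, so no count model was run and no sampling interval of a level was given. In the Ret null table, 2 exchanged headers (gene symbol and gene type) were read by content. It is not stated whether guts of one genotype came from separate litters, so it is unknown whether the guts are independent, as the deposited p-values assume.

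The p-values deposited by the authors were recomputed from the deviance difference by a chi-square distribution with 1 degree of freedom and differed by at most 4.91e-09. Each derived error is the size of a coefficient divided by the square root of that difference, and the 95% intervals rest on it. The headers do not name the base of the coefficients. The deposited coefficients were taken as log2 values, since with the natural base the fitted wildtype levels summed to far more than the depth aimed at per the labels' protocols. Levels are 2 to the power of the fitted sums, averaged over the sexes. Positions and exon lengths came from GENCODE M21 (GRCm38), matched on gene IDs without version for 10 of 10 genes, and promoters from RefSeq (GRCm38.p6). Scripts ran in Python 3.11.15 with numpy 2.4.6, pandas 2.3.3, scipy 1.17.1 and matplotlib 3.10.9. Only the derived error and the calls were tested on simulated counts. These had a single dispersion known to the fit, equal depth and no sex effect, a simpler setting than the guts.

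The 10 genes and the 7 lists read beside them were chosen with earlier results of these data known. Named were all 10 genes. The rule for the other lists was to name the called genes or otherwise those with the smallest p, and it was followed only in part. Markers of neighbouring organs, Epcam and Igfbp5 were named for their levels, and Twist1 after its values were seen, all outside that rule. Further values are given as sums and counts. Alternatives were an adjusted p under 0.1, adjusted p recomputed from the deviances or over genes with a level of at least 50, centring on the median of all genes, the mean in place of the median, the 24-gut model and the natural base.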

Additional observations from a re-analysis of the deposited data

How the results depend on the processing

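No paired analysis was possible because the deposited tables hold no value per gut, and leaving out a replicate could not be run for the same reason, so the effect of any single gut is unknown. The count of called mesothelium genes stayed at 0 in all 12 alternatives to the threshold, the source of p and the filter, and each of the 70 recomputed changes of a single gene kept its direction. For the 40 centred changes the unadjusted p stayed on its side of 0.05, and the 30 from the 24-gut model have no p of their own. These outcomes had little room to differ. The lowest adjusted p of the 10 genes by the likelihood-ratio test was 0.197, in Ret null guts, and recomputed p-values differed by at most 4.91e-09. Centring shifted a change by at most 0.00712 log2 units, and the 24-gut model by at most 0.0217. Of 15 alternatives to a median over the 10 genes, 14 kept the sign. The Sema3d null median was 0.0597 over genes with a level of at least 50, against 0.11, and the double null mean was 0.259, against a median of 0.16. In the interaction the mean was 0.0523 log2 units, against a median of -0.10, and the cause was not tested. Among the 20 other mesothelium genes, the Sema3d null count was 0 without Sema3d itself, against 1 with it, an alternative chosen after seeing the data, since Sema3d is the targeted gene. With the natural base in place of base 2, the median wildtype level of the 10 genes was 5418, against 379 normalised counts. That base would also multiply every log2 change, error and interval by 1.44, and Tbx18 in double null guts would stand at 2.57-fold, against 1.92-fold, while every p is unchanged. This last value was added after seeing the data. Msln and Tbx18 had the lowest levels and wide intervals, so small changes in them could have been missed.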

Other observations

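Twist1, a transcription factor gene of mesenchyme picked for description after its values were seen, had log2 changes in the authors' deposited table of -0.29 ± 0.28 in Ret null guts, 0.05 ± 0.40 in Sema3d null guts and 0.31 ± 0.24 in double null guts, and none was called. Its sex coefficients, male over female, were -0.62, -0.43 and -0.47 log2 units in the same 3 comparisons of the authors' deposited table, beside -0.46, -0.19 and -0.34 for Tbx18. Both genes thus stood lower in male guts in each fit, and sex was not tested here.

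The 12 markers of gut epithelium had median sex coefficients, male over female, of 0.12 (Ret null comparison), 0.14 (Sema3d null) and 0.23 (double null) log2 units in the authors' deposited table. They were above 0 for 10, 12 and 12 of the 12 markers, beside 51.4%, 54.6% and 48.9% of genes with a level of at least 50. Krt19, which is made in that epithelium too, lay at 0.10, 0.34 and 0.34 in the same comparisons of the authors' deposited table. The part of the epithelium in the Krt19 values was not tested.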
